A study of Mus musculus with 8 samples.

Results

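The tricarboxylic acid (TCA) cycle enzymes measured in adipose tissue macrophages (ATMs) were Cs, Idh1, Idh2, Idh3a, Ogdh, Suclg1, Sdha, Fh1 and Mdh2. They were taken by exact gene symbol from the annotation of the arrays, and all 9 were found among the 18820 genes that could be named, each with 1 probe set that carried no other symbol. ATMs were obtained from epididymal adipose tissue of male, wildtype C57Bl/6 mice by selection with magnetic beads for Emr1, the macrophage surface marker that Adgre1 encodes, from the stromal vascular cells. Each of 4 separate experiments gave 1 array of ATMs from obese mice on a high-fat diet (HFD) and 1 array of ATMs from lean mice on a low-fat diet (LFD), and each array measured the RNA of a pool of mice. Both diets were based on lard. The HFD had 45 kcal% fat in experiments 1 and 3 and 60 kcal% in experiments 2 and 4, the matched LFD had 10 kcal%, and the labels give 16, 15, 16 and 10 weeks of diet in experiments 1, 2, 3 and 4. Levels are log2 values, so that a difference of 1 stands for a doubling, and all differences are HFD minus LFD. Both pools of experiment 1 stood apart, with less Adgre1 (8.58 in the obese and 6.54 in the lean pool) than the others (9.95 to 10.95), and results are also given without them. As the pools are bulk samples, fewer cells of a type and less RNA per cell cannot be told apart.

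In the TCA cycle, acetyl-CoA made from pyruvate, fatty acids or amino acids is joined to oxaloacetate and oxidised in the mitochondrial matrix, and the electrons released feed the respiratory chain. The cycle also hands out intermediates. Citrate leaves the mitochondrion for lipid synthesis, cis-aconitate is the source of itaconate, and succinate and fumarate act as signals. In macrophages activated by lipopolysaccharide the cycle is known to be interrupted at isocitrate dehydrogenase and at succinate dehydrogenase, whereas alternatively activated macrophages keep it intact.

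Cs, Idh3a, Idh1, Ogdh and Mdh2 had higher levels in ATMs from obese than from lean mice in every experiment, by 1.15-fold to 1.30-fold on average. Idh2 and Fh1 had lower levels in experiments 2, 3 and 4 and higher levels in experiment 1, and Suclg1 and Sdha lay on both sides of 0. Thus 5 of the 9 enzymes were higher in all 4 experiments, against 11.0% of all genes, and 3 of them (Idh3a, Ogdh and Mdh2) with every array shifted to the same median, against 6.23% of all genes. None of the 9 was lower in all 4, against 7.43% of all genes. All genes include 8197 dim ones (over 4 of 8 values below 4.32), whereas 0 of the 9 enzymes were dim. They also include 3371 genes with equal values in both diets in at least 1 experiment. Such genes cannot count towards the 11.0% or the 7.43%, and shares over genes as bright as the enzymes were not computed. The median difference of the 9 enzymes was 0.21, beside 0.0049 over all genes and 0.026 with dim probe sets left out. For the enzymes it was 0.06 without the lean pool of experiment 1 and 0.13 without the lean pool of experiment 2. In limma 0 of the 9 passed an adjusted p under 0.05 (smallest adjusted p = 0.982), and 0% of all genes passed. Before adjustment, a p under 0.05 was reached by Idh3a and Ogdh upwards and by 0 enzymes downwards, against 3.30% and 1.51% of all genes. The methods' t-test gave the same 2, whereas limma with an intensity trend and robust prior, or without dim probe sets, gave Idh3a alone. Without both arrays of experiment 1, 2, 3 or 4, limma gave 3, 0, 0 or 1 enzymes with an unadjusted p under 0.05. With experiment as a block, which compares the arrays within each experiment, Idh1, Idh3a, Ogdh and Mdh2 reached it upwards and 0 enzymes downwards, against 7.95% and 4.16% of all genes. With arrays shifted to the same median, 0 enzymes reached it without the block and 1, Idh1, with it. In the fit with the block on the values as deposited, 0 enzymes passed after adjustment, nor did any other gene (0%), and the smallest adjusted p among the enzymes was 0.268, that of Idh1.

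**Figure D1:**
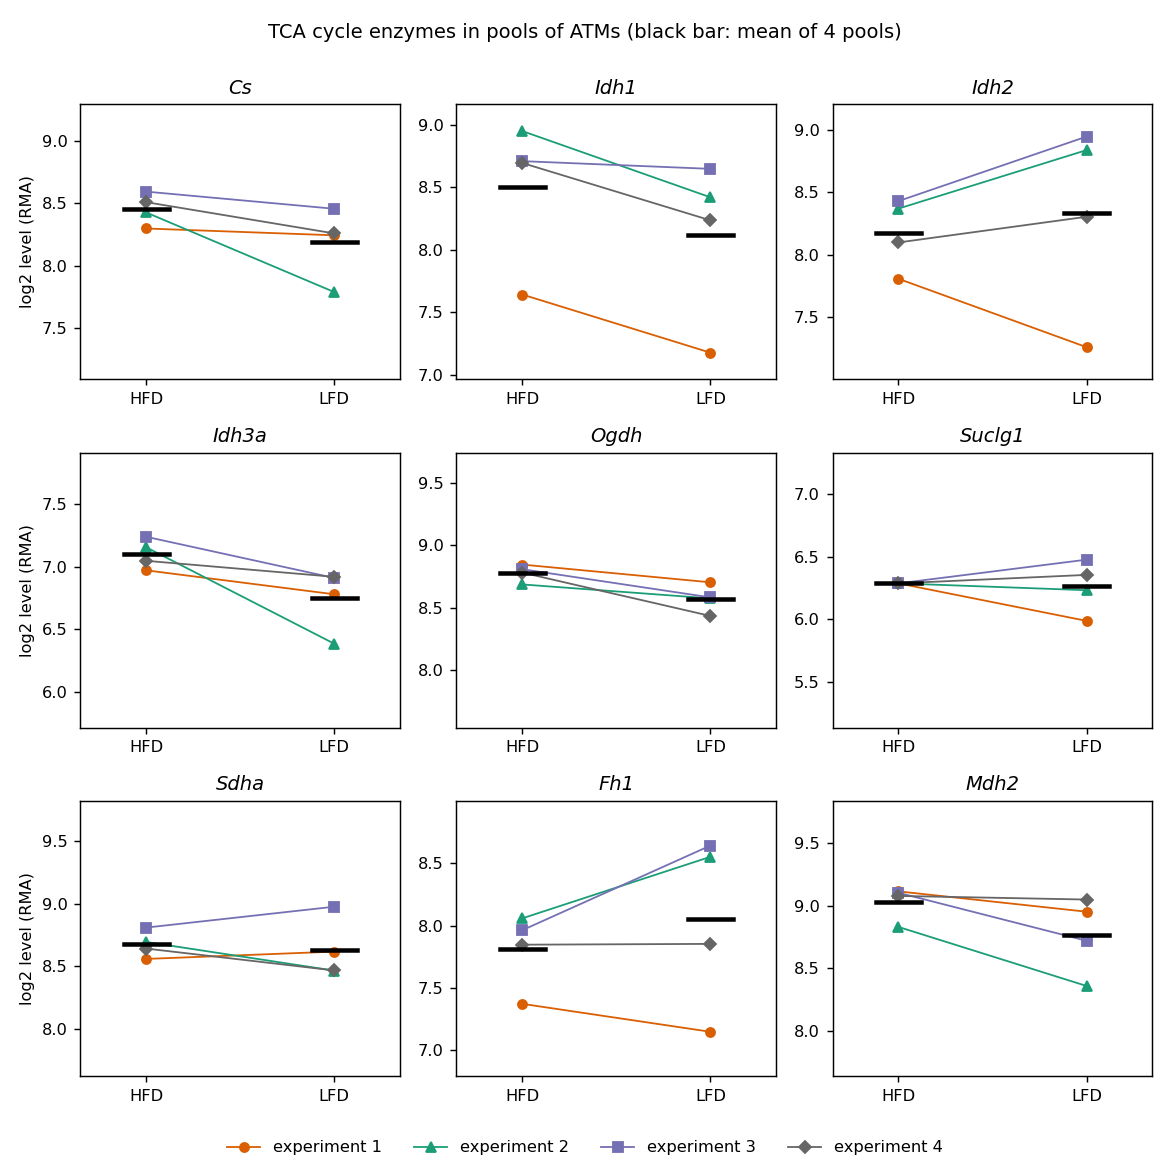
Log2 level (y axis, RMA values) of the 9 TCA cycle enzymes in the HFD and LFD pools of each of 4 experiments, with lines joining both pools of an experiment, black bars at the mean of 4 pools and a y axis of the same length in each panel. In every panel of Cs, Idh1, Idh3a, Ogdh and Mdh2 the 4 lines descend from HFD to LFD, and the levels of Idh1, Idh2 and Fh1 in experiment 1 lie below those of the other experiments.

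Cs encodes citrate synthase, which joins acetyl-CoA and oxaloacetate at the entry of the cycle. Its level was 8.30, 8.43, 8.59 and 8.51 in obese pools and 8.24, 7.79, 8.46 and 8.26 in lean pools of experiments 1, 2, 3 and 4. The groups overlapped, since the lean pool of experiment 3 lay above the obese pools of experiments 1 and 2, while the lean pool of experiment 2 was the lowest. The means were 8.46 ± 0.13 in obese and 8.19 ± 0.28 in lean pools (SD, n = 4 each), a difference of 0.27 (SE 0.15, limma, adjusted p = 0.982). Within experiments it was 0.05, 0.64, 0.14 and 0.25, so that experiment 2 gave the largest difference. Another probe set, annotated to both Cs and Csl and below the dim limit of 4.32 on all 8 arrays, was not used for Cs, and its differences were -0.09, 0.24, -0.02 and 0.15.

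The oxidation of isocitrate is carried out by enzymes that use NAD and enzymes that use NADP, and both kinds were measured. Idh3a encodes the catalytic subunit of the NAD-dependent enzyme of the mitochondrion. Its levels were 6.97, 7.16, 7.24 and 7.05 in obese pools and 6.78, 6.38, 6.91 and 6.92 in lean pools of experiments 1, 2, 3 and 4. Every obese pool lay above every lean pool, which held for 1 of the 9 enzymes and for 1.19% of all genes. Every obese pool lay below every lean pool for 0 of the 9 enzymes and for 0.680% of all genes. The means were 7.10 ± 0.12 in obese and 6.75 ± 0.25 in lean pools (SD, n = 4 each), a difference of 0.36 (SE 0.14, limma, adjusted p = 0.982). Idh3b and Idh3g encode its regulatory subunits. Idh3b differed by 0.19 (SE 0.17), with 0.76 in experiment 2 and values between -0.16 and 0.09 in the others. The difference of Idh3g was -0.10 (SE 0.10), above 0 in experiment 2 alone.

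Idh1 encodes the NADP-dependent isocitrate dehydrogenase of the cytosol and peroxisomes, a source of NADPH outside the mitochondrion. Its levels were 7.64, 8.95, 8.71 and 8.69 in obese pools and 7.18, 8.42, 8.65 and 8.23 in lean pools. Both pools of experiment 1 were far below the others, and within experiments the differences were 0.47, 0.53, 0.06 and 0.46. The mean difference of 0.38 had an SE of 0.39 without the block and 0.11 with it (limma, adjusted p = 0.999 without and 0.268 with the block), and it was 0.06 without the lean pool of experiment 1. Idh2 encodes the NADP-dependent enzyme of the mitochondrial matrix. Its levels were 7.81, 8.37, 8.43 and 8.10 in obese pools and 7.26, 8.84, 8.95 and 8.30 in lean pools. The obese pool was the higher one in experiment 1 (0.55) and the lower one in experiments 2, 3 and 4 (-0.47, -0.52 and -0.21). The mean difference was -0.16 over all 4 experiments (95% interval -1.01 to 0.69, limma without the block, adjusted p = 0.999). It was -0.40 over experiments 2 to 4 (limma without the block, adjusted p = 0.638). With the block, limma gave an adjusted p of 0.818 over all 4 experiments and of 0.375 over experiments 2 to 4. The difference of Idh1 exceeded that of Idh2 by 1.00, 0.58 and 0.66 in experiments 2, 3 and 4 and fell short of it in experiment 1 (-0.08), with a mean of 0.54 (SE 0.23 over 4 experiments). This pair was compared after its values had been seen, and no test was made.

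Ogdh encodes the first component of the 2-oxoglutarate dehydrogenase complex, which turns 2-oxoglutarate into succinyl-CoA. Its levels were 8.85, 8.69, 8.81 and 8.78 in obese pools and 8.70, 8.57, 8.58 and 8.43 in lean pools. The groups met at a single point, where the lean pool of experiment 1 lay just above the obese pool of experiment 2. The means were 8.78 ± 0.07 in obese and 8.57 ± 0.11 in lean pools (SD, n = 4 each), a difference of 0.21 (SE 0.08, limma, adjusted p = 0.982), with 0.14, 0.11, 0.23 and 0.35 within experiments. The range over all 8 arrays, 0.41, was the smallest of the 9 enzymes. Dlst and Dld encode the other components, of which Dld also serves pyruvate dehydrogenase. Dlst differed by 0.19 (SE 0.10) and Dld by 0.13 (SE 0.08), both higher in experiments 2, 3 and 4 and close to 0 in experiment 1 (-0.05 and -0.07).

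The promoter of Ogdh is shown because it was one of the 5 genes higher in every experiment and alone among those with a window in the RefSeq table (build GRCm38.p6, 4 of the 5) held one of the motifs searched. The window spans 250 bases before to 50 after the first of the 6 starts listed for it, at chr11:6291347-6291646 on the plus strand. Capitals mark ACGTG, 1 form of the core of the hypoxia response element, here on the reverse strand. The form GCGTG was not searched, so other windows may hold it.
Ogdh: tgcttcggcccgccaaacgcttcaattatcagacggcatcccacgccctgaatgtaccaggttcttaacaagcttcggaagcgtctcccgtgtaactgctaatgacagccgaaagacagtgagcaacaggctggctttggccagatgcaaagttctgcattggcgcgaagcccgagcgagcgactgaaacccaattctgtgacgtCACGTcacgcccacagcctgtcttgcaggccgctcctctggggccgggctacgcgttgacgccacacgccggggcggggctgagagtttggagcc
Both strands of the first window of each of 8 enzymes were searched for this core, for the NRF1 motif (GCGCA, any base, GCGC), the oestrogen-related receptor motif TCAAGGTCA, the ETS motif CCGGAAG and the E-box CACGTG, which contains the hypoxia core. The core was present in 2 of 8 windows (Ogdh and Sdha), against 19.6% of all 32851 windows of the table. The NRF1 motif was present in 1 of 8 (Sdha), against 4.60% of all windows. The other motifs were in 0 of the 8, against 0.423%, 8.86% and 7.15% of all windows. Idh3a was not searched.

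Suclg1 encodes the alpha subunit shared by both forms of succinyl-CoA ligase, which makes ATP or GTP directly. The deposited value was the same to every digit, 6.29, in all 4 obese pools, and it was 5.99, 6.23, 6.48 and 6.35 in lean pools. Lean pools thus lay on both sides of the obese ones. Identical values on the 4 arrays of a diet were found for 117 genes in obese and 89 genes in lean pools, so that the SD of 0 does not measure the spread between these pools. The difference was 0.02 (95% interval -0.23 to 0.28, limma, adjusted p = 0.999). The beta subunits of the ATP and GTP forms, Sucla2 and Suclg2, differed by 0.01 (SE 0.08) and -0.14 (SE 0.12), and Suclg2 was lower in experiments 1, 3 and 4.

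Sdha encodes the flavoprotein of succinate dehydrogenase, which is complex II of the respiratory chain as well. Its levels were 8.56, 8.69, 8.81 and 8.64 in obese pools and 8.62, 8.46, 8.98 and 8.47 in lean pools. The lean pools enclosed the obese ones, and the difference was 0.04 (95% interval -0.26 to 0.35, limma, adjusted p = 0.999), below 0 in experiments 1 and 3 and above 0 in experiments 2 and 4. The other subunits of the complex were measured too. Sdhb, the iron-sulphur protein, was higher in all 4 experiments (0.50, 0.30, 0.13 and 0.21) with a mean of 0.28 (SE 0.17). Sdhc, a membrane anchor, was also higher in all 4 (0.14, 0.16, 0.27 and 0.30), with a mean of 0.22 (SE 0.15), and the anchor Sdhd was higher in 3 of 4, with a mean of 0.16 (SE 0.18). With the block the SEs of Sdhb, Sdhc and Sdhd were 0.09, 0.08 and 0.10 (limma, adjusted p = 0.325, 0.362 and 0.601). No difference between Sdha and these subunits was tested.

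The promoter of Sdha is shown because it was the only one of the 8 windows with the NRF1 motif, and it held 3 copies. It lies at chr13:74350191-74350490 on the minus strand of GRCm38.p6 (RefSeq). Capitals mark the NRF1 matches and, nearest to the 5′ end, the form ACGTG of the hypoxia core.
Sdha: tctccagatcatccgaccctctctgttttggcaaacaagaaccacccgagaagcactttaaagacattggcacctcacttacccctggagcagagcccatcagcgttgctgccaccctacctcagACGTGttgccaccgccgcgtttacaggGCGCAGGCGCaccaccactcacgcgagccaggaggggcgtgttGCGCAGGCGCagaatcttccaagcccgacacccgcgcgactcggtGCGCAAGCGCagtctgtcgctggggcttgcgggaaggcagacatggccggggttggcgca

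Fh1 encodes fumarase, which hydrates fumarate to malate. Its levels were 7.37, 8.06, 7.96 and 7.85 in obese pools and 7.15, 8.55, 8.64 and 7.85 in lean pools. Obese pools were lower in experiments 2 and 3 (-0.49 and -0.68), nearly equal in experiment 4 (-0.0064) and higher in experiment 1 (0.22), which is the order of Idh2. The mean difference was -0.24 (95% interval -1.03 to 0.55, limma, adjusted p = 0.999), and it was -0.39 over experiments 2 to 4. Over all 4 experiments the fit with the block gave an interval of -0.66 to 0.18 (limma, adjusted p = 0.669). Mdh2 encodes the mitochondrial malate dehydrogenase, which regenerates oxaloacetate. Its levels were 9.11, 8.83, 9.10 and 9.08 in obese pools and 8.95, 8.36, 8.72 and 9.05 in lean pools. Obese pools of 3 experiments were above every lean pool, and that of experiment 2 was below the lean pools of experiments 1 and 4. The difference was 0.26 (SE 0.16, limma, adjusted p = 0.988), with 0.16, 0.47, 0.38 and 0.03 within experiments, so that experiment 4 added little to it. With the block the SE for Mdh2 was 0.10 (limma, adjusted p = 0.404).

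**Figure D2:**
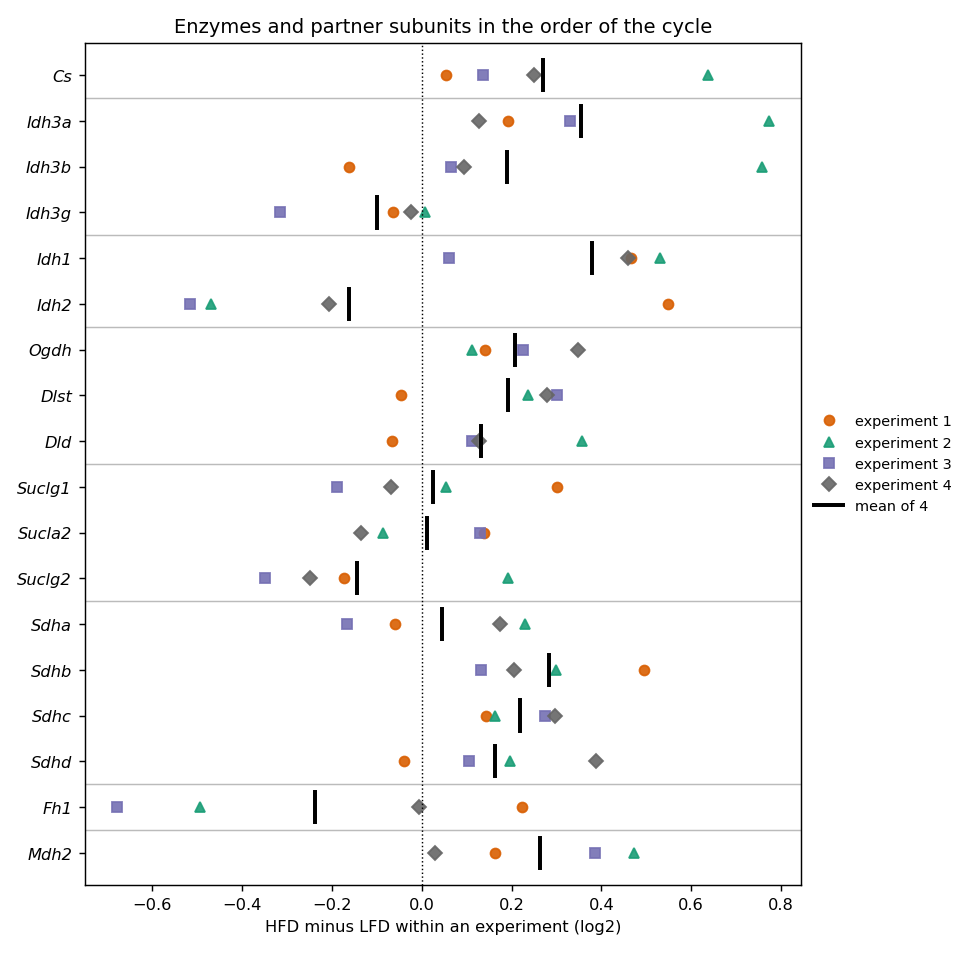
Difference in log2 level (x axis, HFD minus LFD) of the enzymes and of the partner subunits of their complexes in each of 4 experiments, in the order of the cycle, with grey lines between enzymes and a black bar at the mean of 4. All points of Cs, Idh3a, Idh1, Ogdh, Sdhb, Sdhc and Mdh2 lie to the right of 0, and the 3 points of experiments 2 to 4 lie to the left of 0 for Idh2 and Fh1.

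The levels of 3 enzymes were low in experiment 1. Relative to their means on the other 6 arrays, Idh1, Idh2 and Fh1 differed by -1.20, -0.96 and -0.89 on the arrays of this experiment, whereas the other 6 enzymes differed by -0.18 (Suclg1) to 0.18 (Mdh2). Marker genes moved with this split. In experiment 1 the mean of 9 measured macrophage markers, Adgre1 among them, was 8.90 for obese and 7.62 for lean mice, and it lay between 10.12 and 10.71 elsewhere. The mean of 16 endothelial markers there was 10.08 for obese and 10.43 for lean mice, and it lay between 5.47 and 8.90 elsewhere. By diet, the macrophage mean ranged from 8.90 to 10.51 in obese and from 7.62 to 10.71 in lean pools, and the endothelial mean from 7.15 to 10.08 in obese and from 5.47 to 10.43 in lean pools. None of these markers was dim, which means that over 4 of its 8 values were below 4.32. Their part in the enzyme levels was not tested. Without experiment 1 the differences were 0.34 for Cs, 0.35 for Idh1, 0.41 for Idh3a, 0.23 for Ogdh and 0.30 for Mdh2. They were -0.07 for Suclg1 and 0.08 for Sdha, and the median of the 9 enzymes was 0.23.

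**Figure D3:**
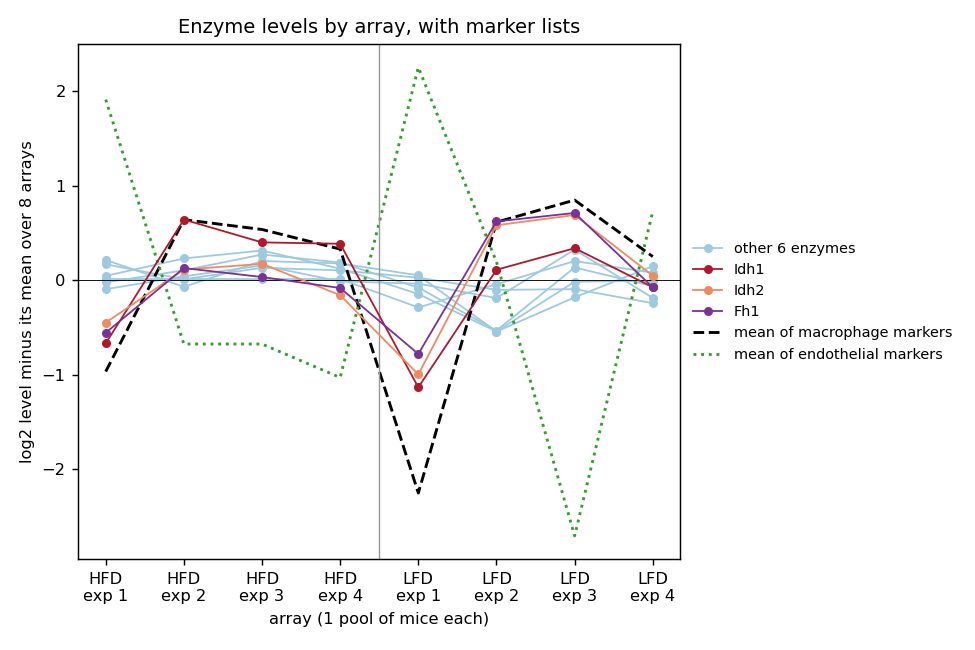
Log2 level minus its mean over the 8 arrays (y axis) for each enzyme on each array (x axis, 4 HFD pools and then 4 LFD pools), with the means of 9 macrophage and 16 endothelial markers centred in the same way. Idh1, Idh2, Fh1 and the macrophage markers lie lowest on the LFD array of experiment 1, where the endothelial markers lie highest, and the other 6 enzymes lie nearer to 0 on that array.

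Taken over all experiments, the ranges of the other marker lists overlapped between the diets, apart from that of the B cell genes. The mean of 7 measured cell cycle genes ranged from 5.82 to 6.77 in obese and from 5.09 to 6.35 in lean pools, and that of 7 fibroblast genes from 7.74 to 9.55 in obese and from 6.26 to 8.64 in lean pools. That of 6 adipocyte genes ranged from 4.29 to 5.51 in obese and from 4.93 to 5.69 in lean pools. These ranges do not compare pools within an experiment. In experiments 1, 2, 3 and 4 the median difference was 0.77, 1.28, 0.77 and -0.0033 for cell cycle genes. For fibroblast genes it was 0.13, 1.24, 1.77 and -0.38. In limma with the block, 5 of 7 cell cycle and 2 of 7 fibroblast genes had an unadjusted p under 0.05 upwards, against 7.95% of all genes. After adjustment 0 passed. Of the T cell, B cell, neutrophil and dendritic cell markers measured, 4 of 5, 3 of 4, 4 of 4 and 3 of 5 were dim. The B cell mean lay between 3.76 and 3.96 in obese and between 4.00 and 4.38 in lean pools. Their part in the differences of the enzymes was not tested either.

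The mean differences were also taken by the fat content of the HFD. Cs differed by 0.44 in the experiments with 60 kcal% fat and by 0.10 in those with 45 kcal%, Idh3a by 0.45 at 60 kcal% and 0.26 at 45 kcal%, and Idh1 by 0.49 at 60 kcal% and 0.26 at 45 kcal%. The difference of Ogdh was 0.23 at 60 kcal% and 0.18 at 45 kcal%, and that of Mdh2 was 0.25 at 60 kcal% and 0.27 at 45 kcal%. The experiments at 1 fat content did not lie together, since for Idh3a experiment 2 (0.77) gave the largest and experiment 4 (0.13), with the same HFD, the smallest difference, and for Idh1 experiment 4 (0.46) was close to experiment 1 (0.47). Each fat content was used in 2 experiments, the weeks of diet differed as well, and no test was made.

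The remaining genes of the cycle were measured on a list of partner subunits, other steps, entry and exit reactions, carriers, assembly factors and lipoate synthesis, of which 39 genes were measured. Their median difference was 0.01, and 8 of the 39 were higher and 1 was lower in all 4 experiments, against 11.0% and 7.43% of all genes. In limma 0 of them passed an adjusted p under 0.05 with or without the block. Before adjustment, 2 had a p under 0.05 upwards and 1 downwards without the block, against 3.30% and 1.51% of all genes. With the block it was 6 upwards and 1 downwards, against 7.95% and 4.16% of all genes. The 9 partner subunits alone had a median of 0.16, with Sdhb and Sdhc higher in all 4. Among other steps and isoforms, Aco1, the cytosolic aconitase that also binds iron-responsive elements, was higher in all 4 experiments with a difference of 0.25 (SE 0.25). Mdh1, the cytosolic malate dehydrogenase, was also higher in all 4 and differed by 0.17 (SE 0.27). Both were low on the arrays of experiment 1 (-0.70 and -0.79 relative to the other arrays). With the block the SEs of Aco1 and Mdh1 were 0.09 and 0.09 (limma, adjusted p = 0.384 and 0.546). Ogdhl, an isoform of Ogdh, was dim on all 8 arrays, and D2hgdh, which oxidises 2-hydroxyglutarate, differed by -0.0089 (SE 0.10).

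Of 16 measured genes of entry, exit and transport, the one with the largest difference was Slc25a13, the mitochondrial carrier that exchanges aspartate for glutamate in the malate-aspartate shuttle. Its levels were 5.53, 6.23, 7.10 and 7.09 in obese pools and 3.83, 5.17, 5.52 and 5.81 in lean pools. The obese pool was higher by 1.70, 1.06, 1.58 and 1.28 in experiments 1, 2, 3 and 4, although the obese pool of experiment 1 lay below the lean pool of experiment 4. The mean difference was 1.40, or 2.65-fold. Its SE was 0.51 without the block and 0.13 with it (limma, adjusted p = 0.982 without and 0.0575 with the block). It passed with the block when arrays were centred on their medians (limma, adjusted p = 0.0247) or dim probe sets left out (limma, adjusted p = 0.0487), settings chosen after seeing the data. It did not pass with experiment as a random block (limma, adjusted p = 0.266) or with the block and any 1 experiment left out (limma, adjusted p = 0.115 to 0.339). Slc25a12, the second carrier of this kind, differed by -0.16 (SE 0.14), and Slc25a11, which carries 2-oxoglutarate and malate in the same shuttle, by 0.14 (SE 0.24), higher in all 4 experiments. With the block the SEs of Slc25a12 and Slc25a11 were 0.11 and 0.07 (limma, adjusted p = 0.666 and 0.539). Slc25a22, a mitochondrial glutamate carrier, had levels of 5.86, 5.68, 5.87 and 5.92 in obese pools and 5.68, 5.36, 5.64 and 5.53 in lean pools, a difference of 0.28 (SE 0.10, limma, adjusted p = 0.982). Mpc1, a subunit of the mitochondrial pyruvate carrier, was higher in all 4 experiments, with a difference of 0.34 (SE 0.17). Its SE with the block was 0.11 (limma, adjusted p = 0.325). Pcx, which makes oxaloacetate from pyruvate, was lower in all 4, by -0.28 (SE 0.12) on average, but it was dim on all 8 arrays (3.30 to 3.74 in obese and 3.69 to 3.98 in lean pools). Acod1, which makes itaconate, differed by 0.44, 0.76, -2.51 and -0.50 in experiments 1, 2, 3 and 4. Its level in the lean pool of experiment 3, 8.45, stood above all others (5.12 to 6.85), and the mean difference was -0.45 (SE 0.67).

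**Figure D4:**
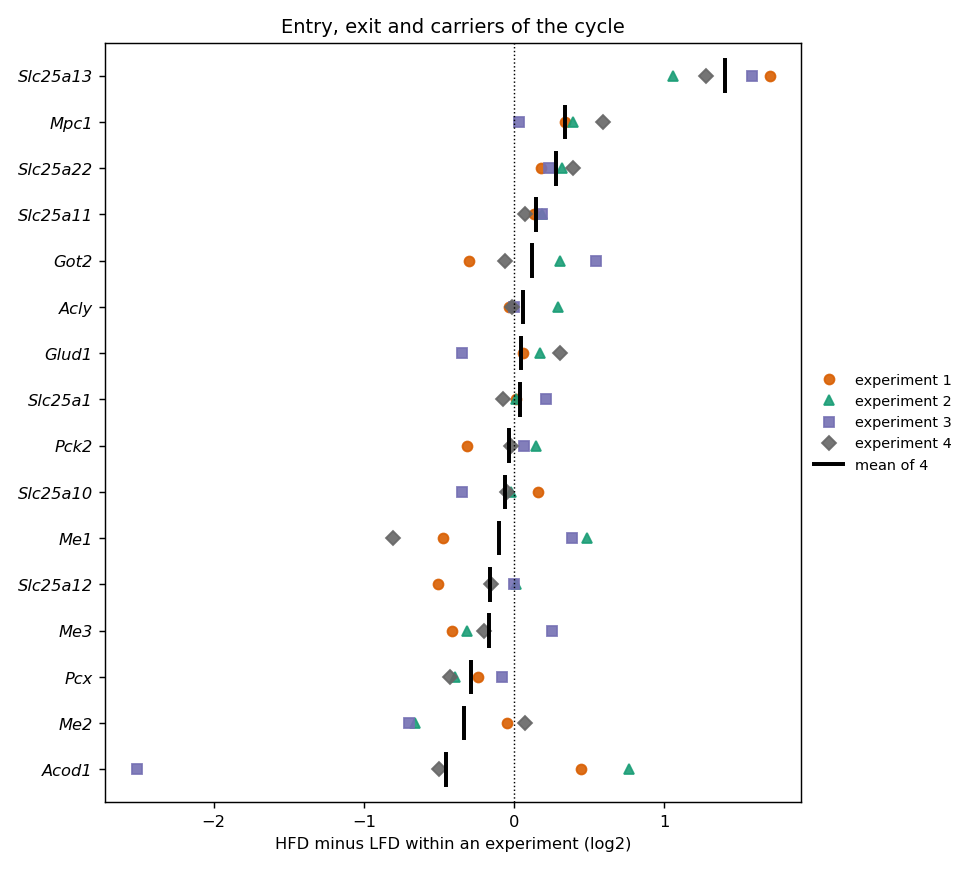
Difference in log2 level (x axis, HFD minus LFD) of 16 genes of entry, exit and transport in each of 4 experiments, with a black bar at the mean of 4 and genes ordered by it. The points of Slc25a13 lie between 1.06 and 1.70, those of Mpc1, Slc25a22 and Slc25a11 above 0, those of Pcx below 0, and those of Acod1 from -2.51 to 0.76.

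Of 9 measured genes of succinate dehydrogenase assembly and lipoate synthesis, 0 had the same direction in all 4 experiments, against 11.0% of all genes higher and 7.43% lower. The assembly factors Sdhaf2 and Sdhaf1 differed by 0.16 (SE 0.08) and -0.21 (SE 0.16), the lipoyltransferase Lipt1, dim on all 8 arrays, by -0.15 (SE 0.09), and Bola3, which acts in iron-sulphur cluster supply, by 0.07 (SE 0.19). Beside the genes of the cycle, 17 genes of outer membrane pores, protein import, chaperones and mitochondrial structure were taken. Only their RNA was measured, and mitochondrial content was not. The median difference of the 17 genes was 0.20, close to that of the enzymes. Of these, 8 were higher in all 4 experiments, against 11.0% of all genes, and 1, Tfam, the packaging factor of mitochondrial DNA, was lower (-0.23 (SE 0.13)). The pores Vdac2 and Vdac1 differed by 0.59 (SE 0.22) and 0.40 (SE 0.18), the prohibitin Phb2 by 0.28 (SE 0.11) and the import receptor Tomm22 by 0.28 (SE 0.10), each higher in all 4. With the block the SEs of Vdac2 and Vdac1 were 0.13 and 0.09 (limma, adjusted p = 0.191 and 0.210). In limma 0 of the 17 passed after adjustment, and before adjustment 3 had a p under 0.05 upwards and 0 downwards, against 3.30% and 1.51% of all genes. With the block these were 5 upwards and 0 downwards, against 7.95% and 4.16%.

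Genes with a pattern like that of the enzymes were sought among 6806 other genes with a mean log2 of at least 6. The median centred level of the 9 enzymes was followed most closely by Capn2, Nup188, Nucks1, Ascc2 and Rad23b, at a root mean square distance of 0.046 to 0.053 over the 8 arrays. The median over all 6806 genes was 0.25, and since these 5 were picked as the nearest, their smaller distance follows from the choice. Their own differences ran from 0.07 (Ascc2) to 0.15 (Rad23b), and the obese pool was lower in experiment 3 for 4 of the 5. The enzymes themselves lay at distances of 0.10 (Sdha) to 0.48 (Idh1) from their common median, so that Idh1 followed the median of the group least. Idh1, Idh2 (0.46) and Fh1 (0.44) lay beyond the median distance of the 6806 genes, and Mdh2 (0.25) lay close to it.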

How the data were processed

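ATMs from HFD-fed and LFD-fed mice were measured on 8 whole-transcript arrays, 4 per diet, from 4 experiments. The authors deposited log2 values that the submitters' processing notes name as RMA, with no version. RMA corrects background, equalises the distributions of the arrays and summarises probes, which compresses differences of dim genes. The array medians ranged from 4.25 to 4.39, and precision is limited by the number of arrays. Of the 35556 features, 21218 had 1 symbol and gave 18820 genes, of which 18790 were matched by gene ID to RefSeq (GRCm38.p6). Another 1881 features carried more than 1 symbol and 12457 had none in the annotation; these stayed unnamed. The probe set with the highest mean represented a gene.

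Diets were compared in limma 3.58.1 (lmFit, eBayes, R 4.3.3) over all 18820 genes, adjusted after Benjamini-Hochberg and called at 0.05, without a block. P-values and SEs rest on the spread between pools, which in the fit without the block includes the spread between experiments. Both arrays of an experiment deviated together from the diet means (Pearson's r of 0.889, 0.357, 0.652 and 0.186 for experiments 1, 2, 3 and 4, taken across genes, which do not count as replicates), and the labels give the experiment number, so the samples are paired. The fits were tested on simulated data. Standard errors are from the fit without the block unless named.

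The enzymes, lists and tests were chosen with earlier results of these data known. The text names all enzymes and their partner subunits, from each other pathway list the 4 genes with the smallest p with the block, and Acod1, Mdh1 and Adgre1. Slc25a11, Slc25a12 and Tfam were chosen after their values were seen. Other settings tried were experiment as a fixed or a random block, leaving out arrays, experiments or dim probe sets, centring on array medians, all probe sets of a gene, a limma prior with trend, the methods' t-test (Student) and each fat content. The block together with centring, without dim probe sets or without 1 experiment was added after seeing the data, as were the centred and 3-experiment counts of direction.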

Additional observations from a re-analysis of the deposited data

Results flagged for a closer look

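Sdha was lower in obese pools in both experiments with the 45 kcal% HFD (-0.06 and -0.17) and higher in both with the 60 kcal% HFD (0.23 and 0.17), and the mean differences at 60 and 45 kcal% were 0.315 apart. Sucla2, a subunit of the ligase of the preceding step, went the other way, lower at 60 kcal% (-0.09 and -0.14) and higher at 45 kcal% (0.14 and 0.13), with mean differences -0.24 apart. Neither difference between the fat contents was tested, and the weeks of diet differed too. Both genes were flagged among 18 genes examined, and the share of all genes with such a split was not computed.

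The obese pool of experiment 2 had the lowest level of Mdh2, with a gap to the next obese pool of 0.872 of the range of the 4 obese pools. The lowest obese pool for Idh3g had a gap of 0.9395 of the range. Among 36 groups of 4 pools examined for 18 genes 2 stood out in this way, and chance alone marks about 1 in 20 groups.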

How the results depend on the processing

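The differences of Cs, Idh1, Idh3a, Ogdh and Mdh2 stayed above 0 and that of Fh1 below 0 under the alternatives that can move a mean difference (single arrays or experiments left out, centred arrays, each fat content), with ranges of 0.10 to 0.44, 0.06 to 0.66, 0.22 to 0.45, 0.15 to 0.25, 0.13 to 0.36 and -0.54 to -0.04, in this order. Suclg1 turned negative without the lean array or both arrays of experiment 1 (-0.068), with centred arrays (-0.028) and in the 60 kcal% experiments (-0.0065). With the block it was also negative without both arrays of experiment 1 and with centred arrays. Sdha turned negative without the lean array of experiment 2 or of experiment 4 (-0.011 and -0.010), without both arrays of experiment 2 (-0.017) or with centred arrays (-0.0073), the last 2 also with the block, and in the 45 kcal% experiments (-0.11). Idh2 turned positive without the lean array of experiment 2 (0.0060) or 3 (0.042) and in the 45 kcal% experiments (0.015). With single arrays left out, Idh2 ranged from -0.52 to 0.042, Sdha from -0.011 to 0.16 and Suclg1 from -0.068 to 0.096. The cause of these turns was not tested, but they follow from leaving out arrays or shifting them.

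The median of the 9 enzymes was 0.065 to 0.23 when single arrays were left out, and 0.10 in the 45 kcal% experiments. At an unadjusted p under 0.05, in either direction, the count of enzymes was 0 without the obese array of experiment 3 and 1 or 2 without any other single array. In 25 alternatives, limma fits and the methods' t-test, 0 enzymes passed an adjusted p under 0.05. With experiment as a block, the number of genes that passed was 0, but 70 with centred arrays and 25 without dim probe sets, and in both 1 other gene of the pathway, Slc25a13, was among them. Without the block, centring left 312 higher and 402 lower genes at an unadjusted p under 0.05, against 621 and 284 as deposited. The count of enzymes higher in all 4 experiments was 3 with centred arrays. With 4 arrays per diet, precision was limited, and a difference that did not pass is not shown to be absent.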
